A study of Mus musculus with 2 samples.

Results

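Genes of iron storage, uptake, export and regulation are described in RNA of the whole mouse adrenal gland, 10 of the 55536 annotated genes in the tables. They were listed by symbol as Fth1, Ftl1, Trf, Tfrc, Slc11a2, Slc40a1, Aco1, Ireb2, Hamp and Erfe, and each matched 1 gene ID of GENCODE M21. Erfe was chosen by its difference between the libraries of this same series, so its ratio below, like that of the other members, is a description and was given no test. The glands came from 2 males of B6CASTF1/J, adult mice aged 8 to 10 months that are F1 offspring of a cross between the strains C57BL/6J and CAST/EiJ. Replicate 2 is animal 4 and replicate 1 is animal 2 of the submitters' numbering, both listed under 1 donor entry. The labels name 1 group, no treatment and no mutation, so levels were compared between genes within each gland, and replicate 2 was set against replicate 1. Each library started from 300 ng of total RNA, was made with a kit that keeps strand and had ERCC spike-ins (synthetic control RNAs) added.

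Iron enters most cells bound to transferrin, through the transferrin receptor, and is carried out of endosomes by a divalent metal transporter; what is not used is stored inside ferritin shells or leaves through ferroportin. In cells short of iron, iron regulatory proteins bind short RNA hairpins called iron-responsive elements, blocking translation of mRNAs that carry the hairpin before the coding sequence and protecting the transferrin receptor mRNA, which carries several behind it. Across the body the liver hormone hepcidin closes ferroportin, and erythroferrone, known as a hormone of red cell precursors, lowers hepcidin. The adrenal cortex uses iron in the heme of its steroid-producing P450 enzymes, and tyrosine hydroxylase of the medulla is an iron enzyme.

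The hairpins of the members are shown because they tie the storage, export and uptake genes together and decide how the transcript shares further on are split. A script searched the sense strand of all 141767 GENCODE M21 transcripts with sequence (mm10) for the loop CAGTGN flanked by 5 bases on each side that can pair, G:T pairs included, with an unpaired C just before the left 5 bases. The loop is in capitals, and each line runs 5′ to 3′ on the strand of the gene.
Fth1 5′ UTR, chr19:9982732-9982760, plus strand: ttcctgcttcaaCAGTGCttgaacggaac
Ftl1 5′ UTR, chr7:45459779-45459807, minus strand: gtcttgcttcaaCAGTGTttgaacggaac
Slc40a1 5′ UTR, chr1:45925465-45925493, minus strand: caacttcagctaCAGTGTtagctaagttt
Tfrc 3′ UTR, chr16:32631219-32631247, plus strand: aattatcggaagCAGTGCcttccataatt
Tfrc 3′ UTR, chr16:32631598-32631626, plus strand: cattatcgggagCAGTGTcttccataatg
Tfrc 3′ UTR, chr16:32631663-32631691, plus strand: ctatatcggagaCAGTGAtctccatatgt
Tfrc 3′ UTR, chr16:32631710-32631738, plus strand: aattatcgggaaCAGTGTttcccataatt

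The form was found in 4 of the 10 members, against 448 of all annotated genes (0.808%) and 890 of all transcripts (0.628%). The search used the form of known iron-responsive elements, and the transferrin receptor is a known carrier. The members' share is therefore no independent result, and nothing is read from the comparison. The loop letters alone were in 77.1% of transcripts. The hairpin lay in the 5′ UTR of 64 of 66743 coding transcripts (0.0959%) and in the 3′ UTR of 238 of them (0.357%). With Watson-Crick pairs alone it was in 198 transcripts (0.140%), and the same 4 members still held it. The Tfrc hairpin at chr16:32631598-32631626 was not among the matches then. In the leading transcripts the loop began 126 bases before the coding sequence of Fth1, 164 bases before that of Ftl1 and 218 bases before that of Slc40a1. The loops of Tfrc began 898, 1277, 1342 and 1389 bases behind its coding sequence. For Slc11a2, Trf, Aco1, Ireb2, Hamp and Erfe, the loop letters occurred but the full form did not, which says nothing of elements with another form. A match is a description of the sequence, not a shown binding site.

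**Figure D1:**
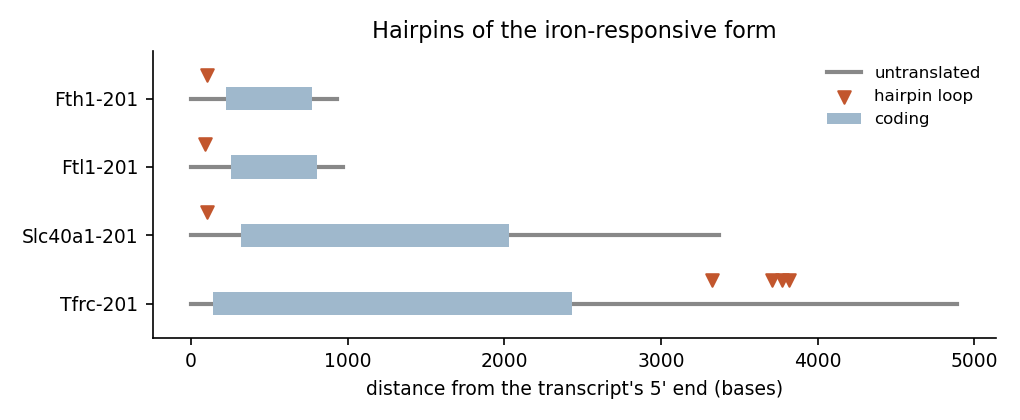
Position of the hairpin loops (triangles) along the leading transcript of each of 4 genes, as distance from the transcript's 5′ end in bases, with coding sequence as bars and untranslated sequence as lines. Fth1, Ftl1 and Slc40a1 each have 1 loop before the coding sequence, and Tfrc has 4 behind it.

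Depth was similar, with expected counts over annotated genes totalling 33987434 in replicate 2 and 29994901 in replicate 1. Levels are given in TPM, a unit scaled by transcript length, and so can be set side by side between genes. At least 1 TPM in both glands was reached by 12385 of 22015 nuclear coding genes and by 9 of the 10 members. The glands also differed in cell type markers. All 10 adipocyte markers were at least 2-fold higher in replicate 2, summing to 2328 TPM in replicate 2 and 252 TPM in replicate 1. All 6 brown adipocyte markers with enough counts were at least 2-fold higher as well, with sums of 291 TPM in replicate 2 and 27.5 TPM in replicate 1. The 8 markers of the adrenal cortex lay lower in replicate 2 in every case (18708 TPM in replicate 2, 22912 TPM in replicate 1, median log2 ratio -0.41), and so did the 8 of chromaffin cells, the catecholamine cells of the medulla (2816 TPM in replicate 2, 3858 TPM in replicate 1, median -0.41). Endothelial markers were close to even (328 TPM in replicate 2, 323 TPM in replicate 1), and Schwann cell markers summed to 27.3 TPM in replicate 2 and 12.8 TPM in replicate 1, with 3 of 4 log2 ratios above 0 and Mog at 0 in both glands. Liver markers summed to 16.2 TPM in replicate 2 and 15.8 TPM in replicate 1, and kidney markers to 1.87 TPM in replicate 2 and 0.49 TPM in replicate 1. In RNA of a whole organ, fewer cells of a type and less RNA per cell cannot be told apart.

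Ferritin heavy chain was the most abundant member and ranked 11 among nuclear coding genes. Fth1 (ENSMUSG00000024661.7, chr19:9980598-9985098), the subunit that oxidises iron as it enters the shell, stood at 1289 TPM in replicate 2 and 1169 TPM in replicate 1, or 1229 ± 85.4 TPM (SD, n = 2). Ftl1 (ENSMUSG00000050708.16, chr7:45457944-45459884), the light chain that helps form the iron core, stood at 503 TPM in replicate 2 and 543 TPM in replicate 1, or 523 ± 28.5 TPM, and ranked 48. The heavy chain was the higher of the pair in both glands, by 2.56 times in replicate 2 and 2.15 times in replicate 1.

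A near-identical copy makes the light chain level uncertain. Ftl1-ps1 on chromosome 13, annotated as protein coding in this release, matched the leading Ftl1 transcript at 99.6% of 910 aligned bases and holds the same 29 bases around the hairpin. It took 453 TPM in replicate 2 and 464 TPM in replicate 1, nearly as much as Ftl1 itself. Ftl1 received 52.6% of their summed TPM in replicate 2 and 53.9% in replicate 1, and the kallisto-format tables, a separate quantification from the reads, gave it 51.3% in replicate 2 and 51.9% in replicate 1. The split between these genes therefore rests on how each program shares out reads that match both. Taken as a sum, light chain transcripts stood at 956 TPM in replicate 2 and 1008 TPM in replicate 1, and Fth1 exceeded the sum by 1.35 times in replicate 2 and 1.16 times in replicate 1. The other 13 annotated copies named for either ferritin chain summed to 16.6 TPM in replicate 2 and 13.8 TPM in replicate 1, nearly all of it Ftl2-ps. That pseudogene is a weak estimate, with 14.8 TPM in replicate 2 and 12.3 TPM in replicate 1 in the main tables but 1.26 TPM in replicate 2 and 0.856 TPM in replicate 1 in the kallisto-format tables.

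Between the glands, ferritin differed little. Scaled counts of Fth1 gave a fold of 0.986 for replicate 2 over replicate 1 (95% counting interval 0.969 to 1.00, log2 ratio -0.02), from 27969 counts in replicate 2 and 24192 in replicate 1. Its TPM pointed the other way, as did its log2 ratio under library totals (0.03), spike-in totals (0.06) and kallisto-format counts (0.01), so no direction is given for it. Ftl1 was 1.19-fold lower in replicate 2 (fold 0.842, interval 0.822 to 0.863), from 12744 counts in replicate 2 and 12903 in replicate 1. The sum of Ftl1 and its copy gave 0.866 (0.850 to 0.881).

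**Figure D2:**
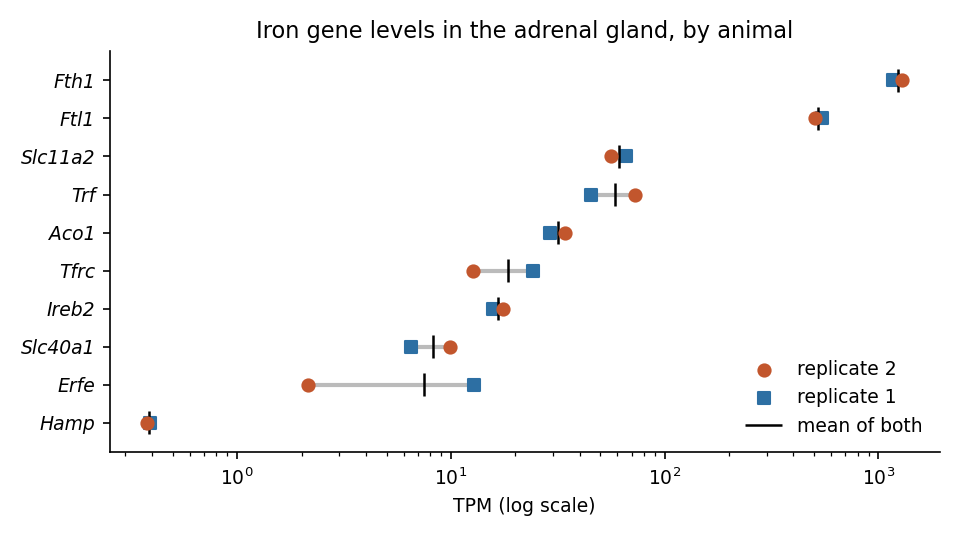
TPM (log scale) of the 10 iron genes in replicate 2 (circles) and replicate 1 (squares), with their mean as a bar, ordered by mean. Fth1 and Ftl1 stand far above the rest, Hamp lies below 1 TPM, and Erfe has the widest gap between the glands, 2.15 TPM in replicate 2 against 12.8 TPM in replicate 1.

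Among the genes of uptake, the receptor was the one that lay apart. Tfrc (ENSMUSG00000022797.16, chr16:32608920-32632794), the transferrin receptor, stood at 12.7 TPM in replicate 2 and 24.2 TPM in replicate 1. Replicate 2 was low and replicate 1 high, with 990 counts in replicate 2 and 2351 in replicate 1. After scaling, Tfrc was 2.79-fold lower in replicate 2 (interval 2.59 to 3.003, log2 ratio -1.45), the 40th lowest ratio of the 12853 nuclear genes averaging 100 counts or more. Cells making hemoglobin are known for abundant transferrin receptor, and the 6 erythroid markers with enough counts lay the other way, all higher in replicate 2 (sum over the list 2289 TPM in replicate 2, 1397 TPM in replicate 1). The cortex and chromaffin lists were lower in replicate 2 together with Tfrc, and their part in this difference was not tested.

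Transferrin itself, the iron carrier of plasma, was higher in replicate 2. Trf (ENSMUSG00000032554.15, chr9:103204001-103230444) stood at 72.3 TPM in replicate 2 and 45.2 TPM in replicate 1, from 2993 counts in replicate 2 and 1683 in replicate 1. That is a fold of 1.52 (1.43 to 1.61), short of the 2-fold line. Trf therefore exceeded its receptor by 5.69 times in TPM in replicate 2 and by 1.87 times in replicate 1. The adipocyte and Schwann cell lists also had higher sums in replicate 2, and their part in the value of Trf was not tested.

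Slc11a2 (ENSMUSG00000023030.16, chr15:100387898-100425072), which encodes the divalent metal transporter DMT1, was more abundant than the receptor in both glands. It stood at 56.2 TPM in replicate 2 and 66.2 TPM in replicate 1, or 4.42 times Tfrc in replicate 2 and 2.73 times Tfrc in replicate 1. Its scaled counts differed little, with a fold of 0.866 (0.825 to 0.908). Slc11a2 and Trf were neighbours in the order of levels and their ranges over the glands overlapped.

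Ferroportin, the known iron exporter of mammalian cells, went the other way from the receptor. Slc40a1 (ENSMUSG00000025993.10, chr1:45908068-45926523) stood at 9.95 TPM in replicate 2 and 6.51 TPM in replicate 1, with 961 counts in replicate 2 and 421 in replicate 1. Replicate 2 was the higher one, with a fold of 1.95 (1.73 to 2.19, log2 ratio 0.91), the 290th highest ratio. It lies so near the 2-fold line that the scaling or quantifier decides its side. Library totals gave 2.01, spike-in totals 2.06 and kallisto-format counts 2.10. DESeq2 size factors gave 1.94 and TMM factors from all genes 1.96. In TPM it fell short of 2-fold, also in the kallisto-format tables (9.74 TPM in replicate 2, 6.52 TPM in replicate 1). The ratio of receptor to exporter was 1.28 in replicate 2 and 3.72 in replicate 1. Macrophages, which recycle iron from red cells, are known for ferroportin. All 11 macrophage markers with enough counts were higher in replicate 2, 2 of them at least 2-fold, with list sums of 363 TPM in replicate 2 and 221 TPM in replicate 1. Their part in the ferroportin value was not tested.

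The iron regulatory proteins were nearly even between the glands. Aco1 (ENSMUSG00000028405.9, chr4:40143081-40198338) encodes IRP1, which is the cytosolic aconitase when it holds an iron-sulfur cluster, and stood at 34.3 TPM in replicate 2 and 29.1 TPM in replicate 1. Ireb2 (ENSMUSG00000032293.8, chr9:54863789-54912530) encodes IRP2, which is degraded when iron is ample, and stood at 17.5 TPM in replicate 2 and 15.7 TPM in replicate 1. Aco1 was thus the higher by 1.96 times in replicate 2 and 1.86 times in replicate 1. Scaled counts gave folds of 1.14 for Aco1 (1.08 to 1.195) and 1.03 for Ireb2 (0.973 to 1.08). Ireb2 and Tfrc were neighbours with overlapping ranges, Ireb2 above Tfrc in replicate 2 and Tfrc above Ireb2 in replicate 1.

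Hepcidin RNA was at the edge of detection. Hamp (ENSMUSG00000050440.8, chr7:30942368-30944032) stood at 0.38 TPM in replicate 2 and 0.39 TPM in replicate 1, which rests on 3.51 counts in replicate 2 and 3.38 in replicate 1. The counting interval of its fold, 0.192 to 7.76, spans both directions, so no difference was detectable at this depth. Its paralog Hamp2 had 0.47 TPM in replicate 2 and 0.28 TPM in replicate 1 in the same tables and was at 0 in both glands in the kallisto-format tables. Reads shared by these neighbours make either value uncertain.

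Erythroferrone had the widest gap of the members. Erfe (ENSMUSG00000047443.14, chr1:91366430-91374217) stood at 2.15 TPM in replicate 2 and 12.8 TPM in replicate 1, or 7.47 ± 7.52 TPM (SD, n = 2). Replicate 1 was the high one, with 972 counts, against 167 counts in replicate 2. Erfe was 6.83-fold lower in replicate 2 (5.79 to 8.09, log2 ratio -2.54), which is the 9th lowest ratio of 12853 nuclear genes and the 3rd lowest of 12021 coding genes. Its place in that order is what put it on the list and supports nothing further. In TPM its range over the glands overlapped that of Slc40a1: Erfe lay below the exporter in replicate 2 and above it in replicate 1.

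Erythroid cells are the best known source of erythroferrone, and skeletal muscle is another from which the same protein was named myonectin in mice. The 6 erythroid markers with enough counts lay the opposite way to Erfe, all higher in replicate 2. Skeletal muscle markers summed to 4.39 TPM in replicate 2 and 2.68 TPM in replicate 1, with Ckm, Mb and Myh4 at 0 in both. The coding genes whose log2 ratio was nearest to that of Erfe over these 2 libraries were Pnmt, Nr4a1, G6pc, Vgf and Akr1b7. Pnmt, the enzyme that makes adrenaline, stood at 78.0 TPM in replicate 2 and 363 TPM in replicate 1 (log2 ratio -2.33). Nr4a1, an immediate early nuclear receptor, stood at 17.9 TPM in replicate 2 and 78.4 TPM in replicate 1. Akr1b7, an aldo-keto reductase of the mouse adrenal cortex, stood at 582 TPM in replicate 2 and 2262 TPM in replicate 1 and was the farthest of the 5, with a log2 ratio of -2.08. G6pc, a glucose-6-phosphatase subunit, and Vgf, a neuropeptide precursor, had log2 ratios of -2.24 and -2.23. That all 5 were high in replicate 1 was fixed by this choice. The cortex and chromaffin lists lay lower in replicate 2, and their part in the Erfe difference was not tested.

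Of the 9 members averaging 100 counts or more, 0 lay 2-fold or more above replicate 1 in replicate 2, where 2.39% of all 12853 nuclear genes were. At least 2-fold lower in replicate 2 were 2 members, Erfe and Tfrc, where 1.15% of all genes were, and in either direction 3.54% of all genes were. The other 7 lay within the line, and Hamp had too few counts. The median log2 ratio was -0.02 over the 9 members and 0.00 over all genes. Since Erfe was listed for its difference, nothing is read from these shares.

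**Figure D3:**
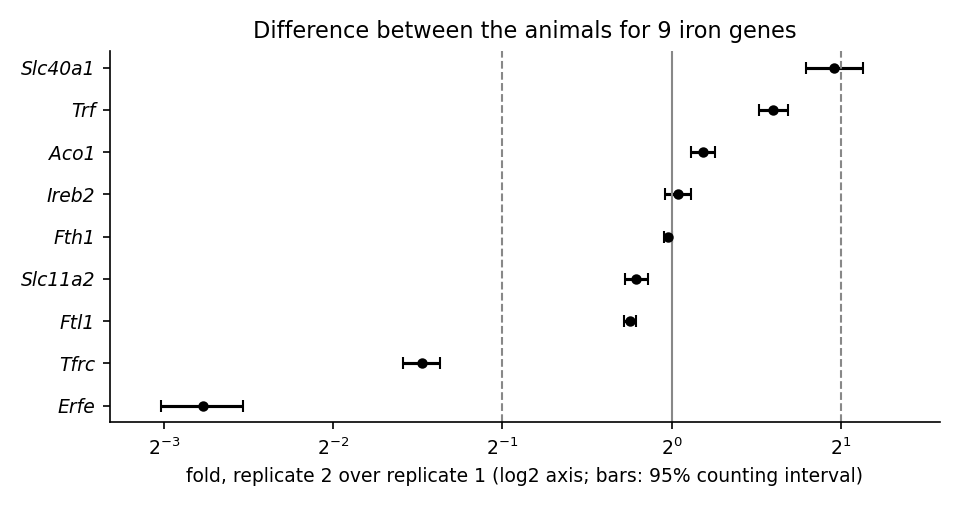
Fold of scaled counts, replicate 2 over replicate 1 (log2 axis), for the 9 iron genes averaging 100 counts or more, with 95% counting intervals, equality as a solid line and 2-fold as dashed lines. Erfe and Tfrc lie beyond the lower line and the interval of Slc40a1 crosses the upper one.

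The transcript tables show which form of each member was counted. Of 57 annotated transcripts of the members, 38 had counts in both glands and 12 hold the hairpin. Fth1 transcripts with the hairpin took 79.2% of the TPM of the gene in replicate 2 and 81.4% in replicate 1. Most of the rest went to Fth1-206, a transcript of 333 bases, with 17.7% in replicate 2 and 14.1% in replicate 1, which the kallisto-format tables put at 0. Ftl1 transcripts with the hairpin took 91.8% in replicate 2 and 93.7% in replicate 1. Ferritin was thus counted mainly as transcripts with the hairpin in both glands.

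Tfrc differed between the glands in its transcript mix as well as in its level. Transcripts holding the hairpins took 43.5% of its TPM in replicate 2 and 64.5% in replicate 1, and 50.2% in replicate 2 and 69.5% in replicate 1 by the kallisto-format tables. By counts in the main tables they held 71.0% in replicate 2 and 87.5% in replicate 1. The full-length Tfrc-201, of 4890 bases, stood at 3.23 TPM in replicate 2 and 14.6 TPM in replicate 1, 4.92-fold lower in replicate 2 by scaled counts (466 counts in replicate 2, 1953 in replicate 1). By kallisto-format counts it was 3.18-fold lower in replicate 2 (794 counts in replicate 2, 2212 in replicate 1). The shorter Tfrc-202, annotated without the hairpins, was nearly even at 4.64 TPM in replicate 2 and 5.01 TPM in replicate 1. The retained intron Tfrc-204, which does hold them, had 2.30 TPM in replicate 2 and 1.09 TPM in replicate 1. These shares are program estimates of overlapping transcripts, with 1 animal on each side.

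Slc40a1 had a large share difference that rests on few counts. Transcripts with the hairpin took 97.8% of its TPM in replicate 2 and 67.5% in replicate 1. In the main tables most of the gap went to Slc40a1-206, a transcript of 451 bases with 0.99 counts in replicate 2 and 18.5 counts in replicate 1, which reaches 28.8% of the TPM in replicate 1. The kallisto-format tables put that transcript at 0 in both glands and gave another coding transcript without the hairpin, of 408 bases, 17.2% in replicate 2 and 47.9% in replicate 1, on 11.0 counts in replicate 2 and 19.5 in replicate 1. There the share with the hairpin was 81.6% in replicate 2 and 52.1% in replicate 1. By counts in the main tables, transcripts with the hairpin held 99.7% in replicate 2 and 95.4% in replicate 1.

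Members without the hairpin differed in how many transcripts shared their signal. For Slc11a2 no transcript led clearly by share of TPM. Slc11a2-205 took 27.5% in replicate 2 and 21.1% in replicate 1, and Slc11a2-207 took 13.6% in replicate 2 and 26.4% in replicate 1. By counts Slc11a2-205, of 4415 bases, led in both glands, with 2004 of 3364 in replicate 2 and 1689 of 3313 in replicate 1. Slc11a2-207, of 389 bases, rests on 66.4 counts in replicate 2 and 141.5 in replicate 1. For Trf, the coding Trf-201 took 48.0% in replicate 2 and 45.6% in replicate 1, and a retained intron of 433 bases, Trf-209, took 46.9% in replicate 2 and 48.0% in replicate 1. That intron rests on 340 counts in replicate 2 and 202 in replicate 1, and the kallisto-format tables gave it 24.7% in replicate 2 and 34.7% in replicate 1. Aco1, Ireb2 and Erfe were each counted mainly as a single transcript. The leading transcript of Aco1 took 92.6% in replicate 2 and 87.0% in replicate 1, that of Ireb2 94.95% in replicate 2 and 94.3% in replicate 1, and that of Erfe 93.5% in replicate 2 and all of it in replicate 1.

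**Figure D4:**
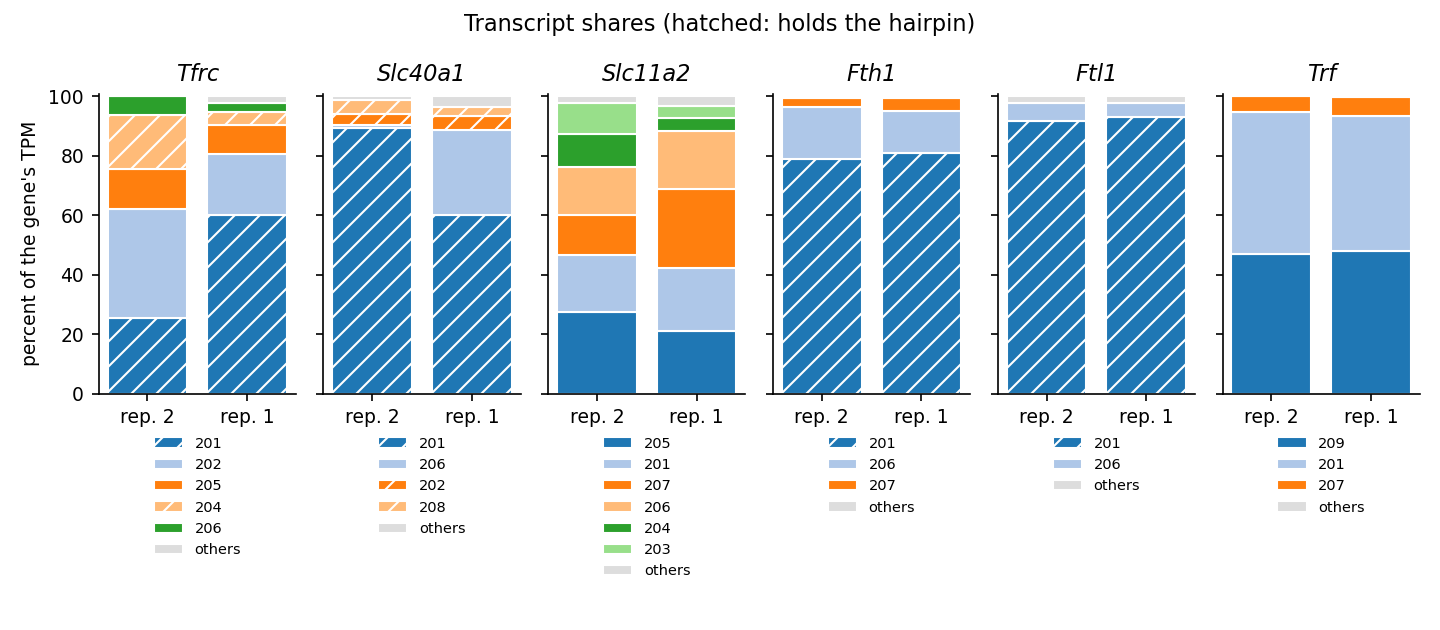
Percent of each gene's TPM taken by its transcripts, replicate 2 left of replicate 1, for 6 iron genes; hatched segments hold the hairpin, colours are set separately in each panel, and transcripts under 4% in both glands are pooled in grey. The hatched share of Tfrc is smaller in replicate 2 (43.5%) than in replicate 1 (64.5%), while those of Fth1 and Ftl1 are close to even.

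The wider pathway was followed with 6 lists of 65 genes, of which 51 were detected and 52 had enough counts. At least 2-fold higher in replicate 2 were 4 of the 52, and at least 2-fold lower was 1, where 2.39% of all 12853 nuclear genes were higher and 1.15% lower by the same rule. The median log2 ratio of the 52 was 0.07. Among 9 genes of uptake and release, 2 were at least 2-fold higher. Steap4, a ferrireductase, stood at 22.0 TPM in replicate 2 and 5.08 TPM in replicate 1 (fold 3.97, interval 3.58 to 4.41). Heph, the membrane ferroxidase hephaestin, stood at 3.70 TPM in replicate 2 and 1.67 TPM in replicate 1 (fold 2.06, 1.75 to 2.44). The most abundant of that list were less far apart: the reductase Steap2 had 30.5 TPM in replicate 2 and 27.2 TPM in replicate 1, the plasma ferroxidase gene Cp 31.4 and 25.8 TPM in replicates 2 and 1, and the lysosomal channel Mcoln1 27.9 and 27.1 TPM in replicates 2 and 1.

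Of the genes that handle hemoglobin and heme, all 3 with enough counts lay higher in replicate 2, and 2 of them passed the 2-fold line. Hp, which encodes the hemoglobin binder haptoglobin, stood at 96.6 TPM in replicate 2 and 13.8 TPM in replicate 1 (fold 6.97, 6.29 to 7.73). Cd163, the macrophage receptor for its complex with hemoglobin, stood at 2.66 TPM in replicate 2 and 0.42 TPM in replicate 1 (fold 5.75, 4.24 to 7.96) and is also 1 of the macrophage markers. Lrp1, a heme-hemopexin receptor, had 100.6 TPM in replicate 2 and 74.2 TPM in replicate 1. Haptoglobin and Steap4 are known in fat as well, and they were higher in the gland whose adipocyte markers were all higher. The part of fat in these values was not tested.

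Iron-sulfur cluster assembly had 1 of 14 genes past the line. Fdx1, the ferredoxin that passes electrons to the steroid-producing P450 enzymes of adrenal mitochondria, stood at 516 TPM in replicate 2 and 1136 TPM in replicate 1, or 2.42-fold lower in replicate 2 (2.37 to 2.48). All 8 cortex markers were lower there too, and their part was not tested. The scaffold Iscu had 245 TPM in replicate 2 and 257 TPM in replicate 1, and its chaperone Hspa9 had 199 TPM in replicate 2 and 208 TPM in replicate 1.

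None of the 15 genes of hepcidin control with enough counts passed the line in either direction (median log2 ratio -0.02), among them Furin at 60.1 TPM in replicate 2 and 59.2 TPM in replicate 1, Neo1 at 41.8 and 35.1 TPM in replicates 2 and 1, and Acvr1 at 31.3 and 32.6 TPM in replicates 2 and 1. None of the 5 chaperone and mitochondrial iron genes did, with the iron chaperones Pcbp2 at 239 TPM in replicate 2 and 192 TPM in replicate 1 and Pcbp1 at 106 TPM in replicate 2 and 116 TPM in replicate 1. Ncoa4, the receptor that delivers ferritin to lysosomes, had 61.2 TPM in replicate 2 and 50.5 TPM in replicate 1, and mitochondrial ferritin (Ftmt) was at 0 in both. None of the 6 genes that control iron regulatory proteins or carry known iron-responsive elements did either. Of these, Epas1, a hypoxia-inducible factor, had 83.1 TPM in replicate 2 and 68.6 TPM in replicate 1, and Fbxl5, which targets IRP2 for degradation, had 35.4 TPM in replicate 2 and 29.2 TPM in replicate 1.

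**Figure D5:**
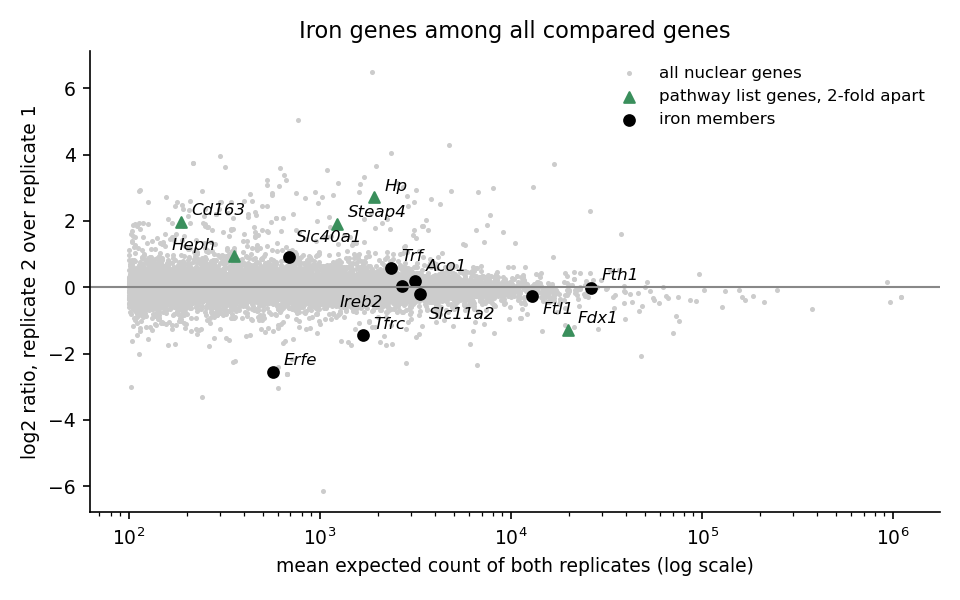
Log2 ratio of replicate 2 over replicate 1 against the mean expected count (log scale) for 12853 nuclear genes (grey), with the 9 iron members that had enough counts (black) and the pathway list genes at least 2-fold apart (green triangles). Erfe and Tfrc lie below the cloud, Hp, Steap4 and Cd163 above it, and the abundant Fth1 lies on the line of equality.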

How the data were processed

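Total RNA of 2 adrenal glands was sequenced and each library quantified alone. The deposited gene and transcript tables hold expected counts and TPM under the column names RSEM writes, per the file headers, and give each transcript's percent of its gene's TPM as deposited. Further deposited tables carry the estimated counts and TPM columns that kallisto writes. Per the text deposited with them, mm10 and GENCODE M21 were used; the sources used here give no program versions. Estimates share out reads among similar sequences, so near-identical copies and overlapping transcripts are uncertain.

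The members and all lists were chosen with earlier results of these data known. Named genes were the members, the 3 highest by mean TPM of each list, list genes at least 2-fold apart, and the 5 coding genes nearest to Erfe by log2 ratio. Hamp2, Ftmt, Lcn2 and markers at 0 were named outside this rule, after their values were seen. Of 93 marker entries 92 matched; the other was not analysed here. Hjv matched as Hfe2. Some list genes that the naming rule takes are not reported here. The 96 spike-in and 26248 numbered entries, the latter unexplained by the sources, were left out (0.238% of counts in replicate 2, 0.243% in replicate 1).

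Counts were scaled with TMM factors from 18196 genes averaging 10 counts or more (edgeR 4.0.16, R 4.3.3), using counts rounded to whole numbers for folds. Log2 ratios are of CPM + 1, so differences of sparsely counted genes are understated. Folds carry exact conditional binomial (Clopper-Pearson) 95% intervals, limited to counting error, since reads lacking molecular identifiers may repeat a molecule. A count of 0 allows up to 3 counts, 0.0883 CPM in replicate 2 and 0.100 CPM in replicate 1. Genes were called apart at a mean of at least 100 counts, a fold of at least 2 and an interval excluding equality. No p-value was computed, there being 1 animal per side and nothing to pair. Fold calling was tested on simulated counts with counting error only and no variation between animals. Changed genes were set well past 2-fold there, so it says nothing of calls near the line or of differences between animals. Alternatives were DESeq2 1.42.0 size factors, library and spike-in totals, kallisto-format counts, a pseudocount of 0.1 CPM, no count filter, and TMM factors from all genes, the last chosen after seeing the data.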

Additional observations from a re-analysis of the deposited data

How the results depend on the processing

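By scaled counts, Erfe and Tfrc stayed at least 2-fold lower in replicate 2 under every scaling, quantifier and filter tried. Erfe was lower by 6.45 to 6.83 times and Tfrc by 2.63 to 2.79 times. In TPM, Tfrc fell short of 2-fold, at 12.7 TPM in replicate 2 and 24.2 TPM in replicate 1. The kallisto-format TPM fell short as well, at 9.30 in replicate 2 and 18.2 in replicate 1. The count of members at least 2-fold higher was 0. It became 1, Slc40a1, with library totals, spike-in totals and kallisto-format counts, and the cause was not tested. In TPM, Slc40a1 fell short of 2-fold, at 9.95 TPM in replicate 2 and 6.51 TPM in replicate 1. The count of pathway genes at least 2-fold lower was 1 and became 2 with no filter on counts, which let in Lcn2 on 3 counts in replicate 2 and 20 in replicate 1. Of 67 alternative log2 ratios, those of the single members and of the members' median, 58 stayed and 9 moved. A member's ratio moved when it left the counting interval of its main value. The median has no such interval, was held to a fixed limit instead and never moved, so all 9 moves were of single members. The members' levels moved by more than their SD in 17 of 50 alternative values, and transcript shares moved in 6 of 30. The 50 and the 30 include the values without either replicate, which could not move by this rule. With 2 animals, each gland always lies within an SD of their mean. For shares, the count of moves therefore understates how much they depended on the quantifier. For levels, an alternative scaled TPM to the sum over nuclear coding genes, which raised every member by more than its SD. Fth1, for example, went from a mean of 1229 TPM to 3287 on that scale. That is a change of unit, so the count of moved levels does not measure how much levels depended on the processing.

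Without either replicate in turn, a level is the other gland's TPM and no ratio remains. No paired analysis was possible because the labels name 1 group. With 2 animals, an SD is only the gap between them, and Hamp, at under 4 counts a library, is limited by depth.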
